A study of Chlorocebus aethiops with 12 samples.

Results

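A set of 10 genes of the insulin and FOXO axis was followed in COS-1 cells that expressed a phosphorylation mutant of the glucocorticoid receptor. They were the insulin receptor gene INSR (NM_000208), the adaptors IRS1 (NM_005544) and IRS2 (NM_003749), the kinase subunit PIK3R1 (NM_181523), the transcription factors FOXO1 (NM_002015), FOXO3 (NM_001455) and FOXO4 (NM_005938), and the effectors PDK4 (NM_002612), DDIT4 (NM_019058) and TXNIP (NM_006472). Each gene was taken as that human RefSeq accession in the array design, with every non-control probe that carries it. This gave 10 of the 32379 accessions and other identifiers on the array, and 18 of its 41000 probes. COS-1 is a fibroblast-like line from the kidney of the African green monkey. All 4 groups had been transfected with the receptor mutant S211A, in which the serine that is phosphorylated at that site is replaced by alanine. In 2 groups this receptor was transfected without MDFIC (called S211A here), and in the other 2 together with MDFIC (S211A+MDFIC), a protein with the inhibitor domain of the MyoD family. Each pair consisted of a group given vehicle and a group given 100 nM dexamethasone (Dex), a synthetic glucocorticoid, for 6 h. Each group held 3 biological replicates per the labels, or 12 arrays in all. The series asks whether MDFIC changes the transcription driven by the receptor when this serine cannot be phosphorylated. Every group carries the mutant receptor, so the values say nothing about the unmutated receptor. Cells that took up the plasmids and cells that did not were measured together.

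Insulin binds its receptor, INSR, which phosphorylates the adaptor proteins IRS1 and IRS2. These recruit phosphoinositide 3-kinase through its regulatory subunit, encoded by PIK3R1, and the kinase AKT is then activated. AKT phosphorylates the transcription factors FOXO1, FOXO3 and FOXO4 and keeps them out of the nucleus, where they otherwise raise genes of fasting and stress such as PDK4 and IRS2. PDK4 shuts down the pyruvate dehydrogenase complex, DDIT4 restrains the mTOR complex that lies below AKT, and TXNIP binds thioredoxin and limits glucose uptake. Glucocorticoids oppose insulin in liver, muscle and fat, and PDK4 and DDIT4 are known glucocorticoid-induced genes in several tissues.

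RNA was measured on one-colour arrays of human probes, so the signals are those of monkey transcripts on human sequences. The share of probes well above background ran from 67.8% to 80.7% over the 12 arrays, and r between 2 arrays of the same group was 0.986 to 0.996 across probes. Every array of slide 1 lay at the lower end of those shares, from 67.8% to 71.7%. The arrays of slides 2 and 3 lay higher, from 76.2% to 80.7%, so detection differed with slide. The S211A vehicle arrays were all on slide 1, and the S211A+MDFIC Dex arrays all on slide 3. The S211A Dex arrays were split between slides 1 (replicate 1) and 2, and the S211A+MDFIC vehicle arrays between slides 2 and 3 (replicate 3). Slide therefore differs between the groups, and values with slide as a block are given beside the changes that were called. Values are log2 signals relative to the 75th percentile of the same array. They compare arrays at 1 probe and not one probe with another. On all 12 arrays 15 of the members' 18 probes stood well above background, whereas 2, one of IRS1 and one of PDK4, did so on no array. The other 16 were tested, and they cover all 10 genes. The number of arrays limits the precision.

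In cells with S211A, Dex raised PDK4 2.80-fold, IRS2 1.498-fold and PIK3R1 1.43-fold, and lowered TXNIP 1.39-fold. In cells with S211A+MDFIC, Dex raised PDK4 2.89-fold, FOXO1 1.25-fold, FOXO3 1.23-fold and PIK3R1 1.18-fold, and lowered TXNIP 1.48-fold. Each of these changes was seen at 1 probe of its gene. PDK4, PIK3R1 and TXNIP were thus called, at an adjusted p under 0.05, in both comparisons. FOXO4, IRS1, INSR and DDIT4 were called in neither. The FOXO1 call was at the dimmer of its 2 probes, whereas the brighter gave 1.05-fold in S211A+MDFIC and was not called. In S211A+MDFIC the calls of FOXO1, FOXO3 and PIK3R1 held in only 7, 2 and 3 of 12 fits that each left out 1 array. As the arrays hold bulk RNA, more RNA per cell and more cells that carry a transcript cannot be told apart.

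Among the 16 tested probes, 4 were called for Dex in S211A, 3 higher and 1 lower. Of all 31232 tested probes 6.14% were called there, 4.17% higher and 1.97% lower. For Dex in S211A+MDFIC 5 of the 16 were called, 4 higher and 1 lower, against 9.41% of all tested probes, with 5.5% higher and 3.9% lower. The median change of the 16 was 0.19 on the log2 scale in S211A and 0.24 in S211A+MDFIC, beside 0.02 and 0.03 over all tested probes. In S211A the vehicle and Dex arrays did not overlap at 9 of the 16 probes with Dex higher and at 2 with Dex lower. Over all tested probes with 6 values 25.6% did not overlap, 14.7% with Dex higher and 10.9% with Dex lower. In S211A+MDFIC these numbers were 7 and 3, beside 30.7% of all tested probes, 16.9% higher and 13.8% lower. The genes had been picked with results of these data known, and the counts describe them only.

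**Figure D1:**
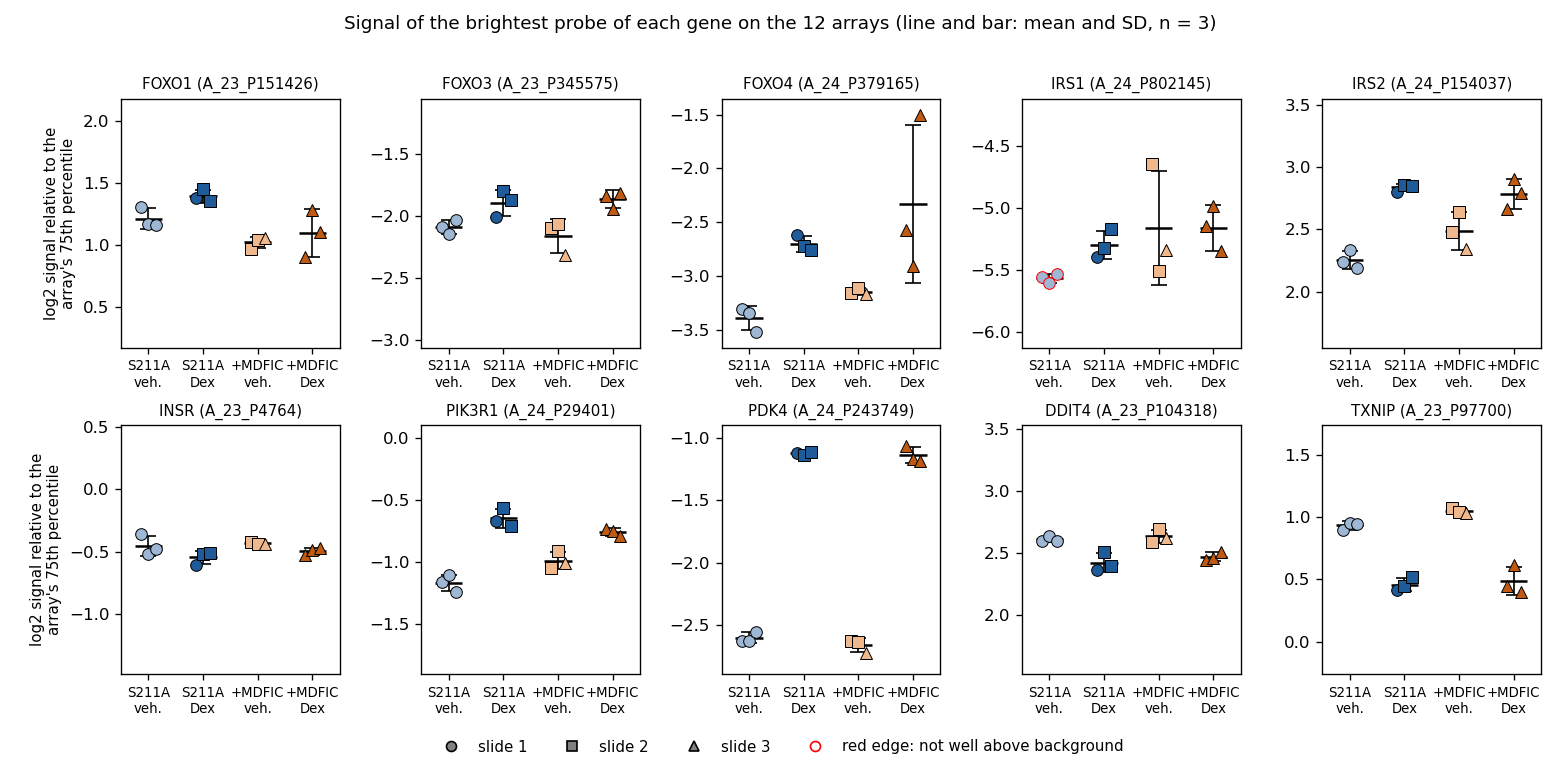
Signal of the brightest probe of each of the 10 genes on the 12 arrays, as log2 relative to the array's 75th percentile (vertical axis), by group (horizontal axis). Points are arrays shaped by slide, lines and bars are the mean and SD of 3 arrays, and each panel has its own vertical range of at least 2 log2 units. PDK4 lies near -2.6 on all 6 vehicle arrays and near -1.1 on all 6 Dex arrays, and TXNIP is lower on every Dex array than on any vehicle array.

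INSR, the insulin receptor, was measured by 1 probe, A_23_P4764. It read -0.36, -0.52 and -0.48 in S211A vehicle and -0.61, -0.52 and -0.51 in S211A Dex. With MDFIC it read -0.43, -0.44 and -0.44 under vehicle and -0.53, -0.49 and -0.47 under Dex. The ranges overlapped in S211A and lay just apart in S211A+MDFIC, where all Dex arrays were the lower ones. The change under Dex was -0.09 on the log2 scale (95% interval -0.21 to 0.03, limma adjusted p = 0.39) in S211A. It was -0.06 (interval -0.18 to 0.06, limma adjusted p = 0.49) in S211A+MDFIC. INSR was thus not called. The size of its value in S211A depended on the processing, at -0.15 (SE 0.08) with slide as a block and -0.16 (SE 0.07) with median centring, neither of them called. In S211A+MDFIC it was -0.06 with the block, -0.13 with median centring and 0.00 with normexp, likewise not called.

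IRS1, the first of the adaptors, was close to the limit of detection. Its probe A_24_P802145 failed to stand well above background in S211A vehicle and stood well above it on the other 9 arrays. The intensities were 16.4, 18.0 and 17.04 in S211A vehicle, 18.5, 20.2 and 22.3 in S211A Dex, 37.2, 18.0 and 22.9 in S211A+MDFIC vehicle, and 26.9, 28.5 and 18.7 in S211A+MDFIC Dex. S211A+MDFIC vehicle replicate 1 gave the highest signal of this probe among the 12 arrays. The 18.0 of S211A vehicle replicate 2, on slide 1, was not well above background. The 18.0 of S211A+MDFIC vehicle replicate 2, on slide 2, was, so the limit differed between arrays. In S211A the vehicle group has only a bound, and the ratio of the Dex mean to it was 1.16, with no error of its own. The fitted log2 change there was 0.27 (SE 0.19, interval -0.16 to 0.69, limma adjusted p = 0.50), so no rise was shown. With normexp it was 0.00 (SE 0.09). In S211A+MDFIC the fitted change was 0.00 (interval -0.43 to 0.43). That value turned on single vehicle arrays, as it was 0.26 (SE 0.11, limma adjusted p = 0.25) without replicate 1 and -0.17 (SE 0.19, limma adjusted p = 0.66) without replicate 2. Neither comparison was called, and the wide interval leaves changes of that size undetectable here. For this bound the Dex mean was set against a floor on each vehicle array, namely the probe's signal or the faintest signal well above background, whichever was higher. The other IRS1 probe, A_24_P225679, was not well above background on any array.

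IRS2, the adaptor that FOXO factors and glucocorticoids are known to raise, had 3 probes, all well above background on 12 arrays. The brightest, A_24_P154037, read 2.24, 2.33 and 2.19 in S211A vehicle and 2.80, 2.86 and 2.85 in S211A Dex. Its S211A+MDFIC values were 2.48, 2.64 and 2.34 under vehicle and 2.66, 2.91 and 2.79 under Dex. Every Dex array lay above every vehicle array of the same transfection, by a wide gap in S211A and by a narrow one in S211A+MDFIC, where the vehicle arrays began higher. The rise in S211A was 0.58 (log2; SE 0.09, limma adjusted p = 0.00326). In S211A+MDFIC the change was 0.30 (SE 0.09, limma adjusted p = 0.0605) and was not called. It was called without S211A+MDFIC vehicle replicate 2 (0.38, limma adjusted p = 0.0411). At the same 0.30 it was also called by limma with trend and robust moderation (adjusted p = 0.0260), with the replicate number as a block (adjusted p = 0.0426) and over probes well above background on 12 arrays (adjusted p = 0.0451). With slide as a block the value in S211A was 0.55 (limma adjusted p = 0.0513), just short of the threshold, and in S211A+MDFIC it was 0.45 (limma adjusted p = 0.11).

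The other IRS2 probes did not follow the brightest one in S211A. A_24_P207003 changed by -0.00 (interval -0.25 to 0.25) and A_23_P53838 by 0.18 (interval -0.25 to 0.62) under Dex. The interval of A_24_P207003 excludes the 0.58 of the brightest probe, whereas that of A_23_P53838 includes it. In S211A+MDFIC the 3 probes gave 0.30, 0.24 and 0.23, and none was called, but A_24_P207003 was without S211A+MDFIC Dex replicate 2 (0.38, limma adjusted p = 0.0144). The IRS2 call thus rests on 1 of 3 probes.

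PIK3R1, the regulatory subunit of phosphoinositide 3-kinase, had a brighter probe, A_24_P29401, and a dimmer one, A_23_P144980. The brighter one read -1.16, -1.11 and -1.24 in S211A vehicle and -0.67, -0.56 and -0.71 in S211A Dex. Its S211A+MDFIC values were -1.05, -0.91 and -1.003 under vehicle and -0.73, -0.75 and -0.79 under Dex. The 4 groups formed an order without overlap, from S211A vehicle through S211A+MDFIC vehicle and S211A+MDFIC Dex to S211A Dex, although no MDFIC difference between neighbours was called. Dex raised it by 0.52 in S211A (SE 0.06, limma adjusted p = 0.000676) and by 0.23 in S211A+MDFIC (SE 0.06, limma adjusted p = 0.0392).

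With slide as a block the PIK3R1 rise was 0.50 in S211A (limma adjusted p = 0.0365). In S211A+MDFIC the value was 0.25, with a limma adjusted p of 0.29 that ended the call. That call also ended with normexp (limma adjusted p = 0.0799), median centring (limma adjusted p = 0.23) and unscaled values (limma adjusted p = 0.49). The same held with no filter on dim probes (limma adjusted p = 0.0668) and with only the compared groups in the fit (limma adjusted p = 0.11). When each array was left out in turn, the call ended in 9 of 12 fits. Among the 12 it held only without S211A vehicle replicate 2 or 3 or S211A Dex replicate 2, arrays that this change does not use. Over the 12 fits the value ran from 0.20 to 0.27. The dimmer probe changed by 0.17 (interval -0.26 to 0.60) and 0.30 (interval -0.13 to 0.73) and was not called, at intensities of 32.5 to 67.7.

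FOXO1, the factor that insulin signalling restrains in liver, had 2 probes that were well above background on all arrays. The dimmer, A_24_P22079, read -1.24, -1.27 and -1.08 in S211A vehicle and -0.99, -0.96 and -1.02 in S211A Dex. The S211A+MDFIC values were -1.20, -1.20 and -1.28 under vehicle and -0.79, -1.03 and -0.89 under Dex. Dex arrays lay above vehicle arrays in both transfections. The rise in S211A+MDFIC was 0.32 (SE 0.07, limma adjusted p = 0.0236), and the change of 0.21 in S211A was not called (SE 0.07, limma adjusted p = 0.15). With slide as a block the value in S211A+MDFIC was 0.38 (limma adjusted p = 0.17), and with median centring it was 0.25 (limma adjusted p = 0.0567), so that both ended the call. Unscaled values (0.29, limma adjusted p = 0.30) and a fit of only the compared groups (limma adjusted p = 0.0904) ended the call too. It also ended without any one of the 3 S211A+MDFIC vehicle arrays or without S211A+MDFIC Dex replicate 1 or 3, with values from 0.26 to 0.34.

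The brighter FOXO1 probe, A_23_P151426, read 1.31, 1.17 and 1.16 in S211A vehicle and 1.38, 1.45 and 1.35 in S211A Dex. It read 0.97, 1.04 and 1.06 in S211A+MDFIC vehicle and 0.90, 1.29 and 1.11 in S211A+MDFIC Dex. The S211A+MDFIC Dex arrays spread over the whole range of their vehicle arrays. Its changes of 0.18 (interval -0.02 to 0.38) in S211A and 0.08 (interval -0.13 to 0.28) in S211A+MDFIC were not called.

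FOXO3 is a second factor of the family, known for its targets in autophagy and oxidative stress. Its brighter probe, A_23_P345575, read -2.09, -2.14 and -2.03 in S211A vehicle and -2.01, -1.80 and -1.88 in S211A Dex. The S211A+MDFIC arrays read -2.10, -2.07 and -2.32 under vehicle and -1.84, -1.95 and -1.81 under Dex. Dex arrays were again the higher ones, with S211A Dex replicate 1 almost level with the vehicle arrays. The rise in S211A+MDFIC was 0.30 (SE 0.08) and passed by the smallest margin, at a limma adjusted p of 0.0499. It passed in only 2 of the 12 fits that left out an array, those that dropped replicate 1 of S211A Dex or replicate 2 of S211A+MDFIC Dex, with values from 0.22 to 0.34 over the 12. With the replicate number as a block the limma adjusted p was 0.0916, which ended the call. It also ended with normexp (limma adjusted p = 0.0881), median centring (limma adjusted p = 0.0891) and unscaled values (limma adjusted p = 0.32). The same held with no filter on dim probes (limma adjusted p = 0.0800) and with only the compared groups in the fit (limma adjusted p = 0.13). With slide as a block the value was 0.45 and stayed called (limma adjusted p = 0.0392). In S211A the change was 0.19 (SE 0.08, limma adjusted p = 0.23) and with the slide block 0.08. The dimmer probe, A_32_P102062, gave 0.10 and 0.12 and was not called.

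FOXO4 showed the largest changes of the 3 factors, with the largest errors. Probe A_24_P379165 read -3.30, -3.34 and -3.51 in S211A vehicle and -2.62, -2.72 and -2.76 in S211A Dex. It read -3.15, -3.10 and -3.17 in S211A+MDFIC vehicle and -2.57, -2.90 and -1.51 in S211A+MDFIC Dex. Dex arrays lay above vehicle arrays in both transfections, and S211A+MDFIC Dex replicate 3 stood far above all others, at an intensity of 268 against at most 160.2 elsewhere. The changes were 0.69 in S211A (SE 0.28, limma adjusted p = 0.21) and 0.81 in S211A+MDFIC (SE 0.28, limma adjusted p = 0.0974), and neither was called.

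That single array set the spread of this probe in the fit over all groups. Without S211A+MDFIC Dex replicate 3 the change in S211A, which does not use that array, was called at the same 0.69 (SE 0.09, limma adjusted p = 0.00335), and that in S211A+MDFIC fell to 0.40 (SE 0.10, limma adjusted p = 0.0657). With only the compared groups in the fit the change in S211A was also called (limma adjusted p = 0.0156). The second FOXO4 probe, A_23_P217487, gave 0.64 (SE 0.18, limma adjusted p = 0.0732) and 0.48 (SE 0.18, limma adjusted p = 0.13) at intensities of 24.3 to 52.9. It was called for Dex in S211A without S211A Dex replicate 1 or without S211A+MDFIC Dex replicate 2. Both probes were also called in S211A+MDFIC without its Dex replicate 2, at 1.10 and 0.64. In S211A normexp background correction with an offset of 50 put the 2 probes at 0.34 and 0.19, and slide as a block put them at 0.77 and 0.35, none of them called.

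PDK4, the kinase that turns off pyruvate dehydrogenase, had the clearest response of the 10 genes. Probe A_24_P243749 read -2.63, -2.63 and -2.56 in S211A vehicle and -1.12, -1.13 and -1.11 in S211A Dex. In S211A+MDFIC it read -2.63, -2.64 and -2.73 under vehicle and -1.06, -1.17 and -1.18 under Dex. The 6 vehicle arrays and the 6 Dex arrays formed separate levels, and the transfections overlapped within each. In deposited intensities the group means rose from 134 ± 8.49 to 367 ± 7.59 (SD, n = 3) in S211A and from 140 ± 9.63 to 398 ± 60.6 (SD, n = 3) in S211A+MDFIC.

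The rise of PDK4 was 1.49 (log2) in S211A (SE 0.05, limma adjusted p = 4.58e-07) and 1.53 in S211A+MDFIC (SE 0.05, limma adjusted p = 4.04e-07). Of the 31232 tested probes, 140 rose as much or more in S211A and 89 in S211A+MDFIC, this probe included. With slide as a block it was 1.49 and 1.59, and it was called in all 12 fits that left out an array, at 1.47 to 1.51 and 1.49 to 1.55. Normexp lowered it to 1.05 and 1.16, both called. Within slide 1 alone, with 1 Dex array against 3 vehicle arrays, the value was 1.49 (limma adjusted p = 0.0528), and within slide 3 alone, with 3 Dex arrays against 1 vehicle array, it was 1.59 (limma adjusted p = 0.0899). The block gives the same values as these single slides for Dex, since only the S211A Dex arrays link slides 1 and 2 and only the S211A+MDFIC vehicle arrays link slides 2 and 3.

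The second PDK4 probe, A_23_P257087, did not register the transcript. Its intensities were 2.62 to 4.71 on the 12 arrays, and none was well above background. PDK4 thus rests on 1 probe.

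DDIT4, the mTOR inhibitor that glucocorticoids raise in other tissues, was bright and did not rise. Probe A_23_P104318 read 2.60, 2.64 and 2.60 in S211A vehicle and 2.36, 2.51 and 2.40 in S211A Dex. With MDFIC it read 2.59, 2.69 and 2.63 under vehicle and 2.44, 2.46 and 2.51 under Dex. Every Dex array lay below every vehicle array of its transfection. The change was -0.19 (interval -0.31 to -0.07, limma adjusted p = 0.0752) in S211A and -0.16 (interval -0.28 to -0.04, limma adjusted p = 0.0862) in S211A+MDFIC. Neither was called, and neither interval includes a rise. The slide block gave -0.25 (SE 0.08) and -0.15 (SE 0.08), not called. Median centring gave -0.25 (limma adjusted p = 0.0502) and -0.23 (limma adjusted p = 0.0621), likewise not called. With trend and robust moderation of the variances the change in S211A was called at the same -0.19 (limma adjusted p = 0.0404).

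TXNIP, which binds thioredoxin and limits glucose uptake, was the only member called lower. Probe A_23_P97700 read 0.90, 0.96 and 0.95 in S211A vehicle and 0.42, 0.44 and 0.52 in S211A Dex. With MDFIC it read 1.08, 1.05 and 1.04 under vehicle and 0.45, 0.61 and 0.40 under Dex. No Dex array reached any vehicle array. TXNIP fell by 0.47 (log2) in S211A (SE 0.06, limma adjusted p = 0.00139) and by 0.57 in S211A+MDFIC (SE 0.06, limma adjusted p = 0.000403). As many as 703 tested probes fell as much or more in S211A, and 529 in S211A+MDFIC.

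With slide as a block the TXNIP values were -0.52 (limma adjusted p = 0.0310) and -0.55 (limma adjusted p = 0.0283). They were called in all 12 fits that left out an array, at -0.50 to -0.45 and -0.63 to -0.52. On the deposited intensities without scaling the value in S211A was -0.50 with a limma adjusted p of 0.0940, which ended that call, and the value in S211A+MDFIC stayed called. The unscaled values also ended the PIK3R1 call in S211A (0.49, limma adjusted p = 0.0703).

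**Figure D2:**
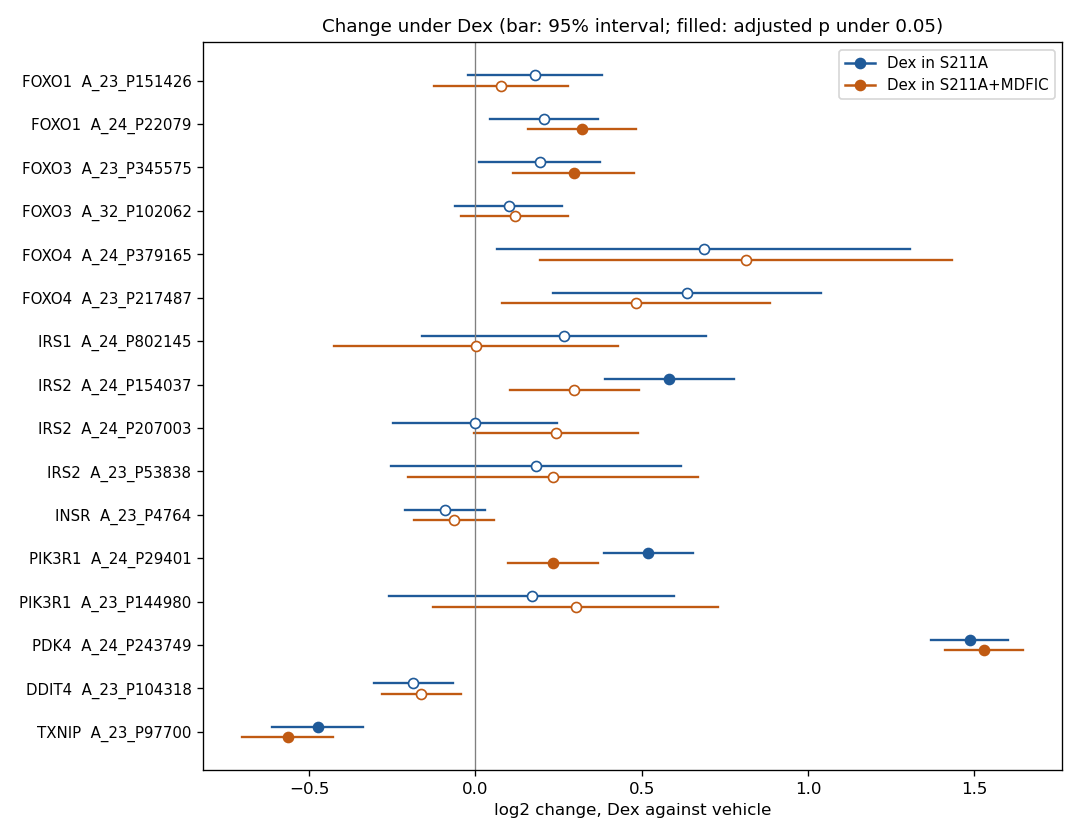
Change under Dex of the 16 tested probes (log2, Dex against vehicle, horizontal axis) in S211A and in S211A+MDFIC cells, with 95% intervals from the limma fit. Filled points passed an adjusted p of 0.05: PDK4, PIK3R1 and TXNIP in both, IRS2 in S211A, and FOXO1 and FOXO3 in S211A+MDFIC.

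**Figure D3:**
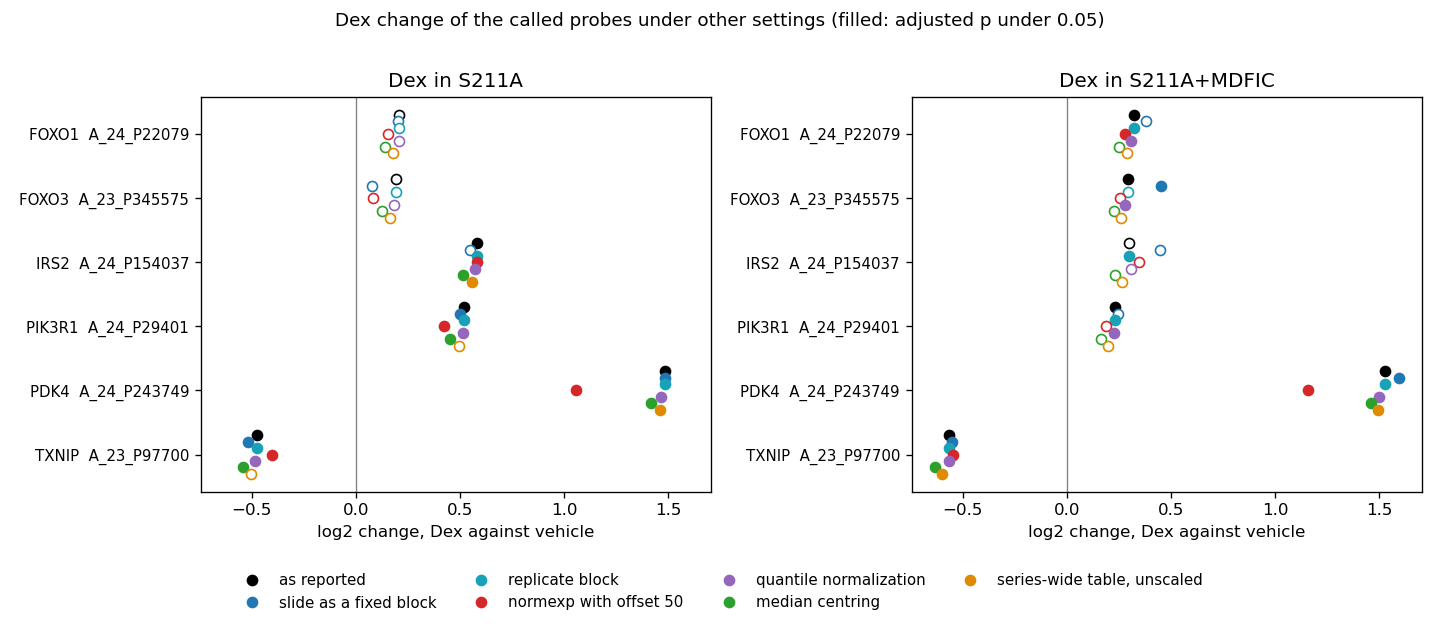
Log2 change under Dex of the 6 probes called in either comparison (horizontal axis), under the setting reported and under 6 others shown by colour. PDK4 is filled, that is called, at all 7 settings in both panels, TXNIP at all but the unscaled values in S211A, and IRS2 in S211A at all but the slide block, whereas the FOXO1, FOXO3 and PIK3R1 points in S211A+MDFIC are open at several settings.

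Whether MDFIC changed these genes was asked under vehicle and under Dex. None of the 16 probes was called by limma in either comparison, beside 0.736% of all tested probes under vehicle and 0.311% under Dex. At an unadjusted p under 0.05 there were 2 of the 16 probes under vehicle, those of IRS2 and PIK3R1, and 1 under Dex, that of FOXO1. Of all tested probes 15.9% and 13.03% passed that level. S211A+MDFIC vehicle arrays lay wholly above S211A vehicle arrays at 5 probes and below at 2, where 28.1% of all tested probes did not overlap, 13% higher and 15.1% lower. Under Dex these numbers were 0 and 2, beside 15% of all tested probes, 6.17% higher and 8.8% lower. No slide held both groups of either comparison, so that differences between slides enter these values directly.

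The IRS2 probe A_24_P154037 differed by 0.23 under vehicle (interval 0.04 to 0.43, limma adjusted p = 0.23) and by -0.05 under Dex. The PIK3R1 probe A_24_P29401 differed by 0.18 under vehicle (interval 0.04 to 0.31, limma adjusted p = 0.19) and by -0.11 under Dex. FOXO1 was lower with MDFIC at its brighter probe, by -0.19 under vehicle (limma adjusted p = 0.34) and -0.29 under Dex (limma adjusted p = 0.24), but its dimmer probe gave -0.03 and 0.09. Without replicate 2 of S211A+MDFIC Dex the brighter FOXO1 probe was called, its value under Dex being -0.39 (limma adjusted p = 0.0475). PDK4 differed by -0.06 (interval -0.18 to 0.06) under vehicle and by -0.02 (interval -0.13 to 0.10) under Dex.

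The Dex responses of the 2 transfections were compared directly, as the response in S211A+MDFIC minus that in S211A. They share no array, and 0 of the 16 probes were called by limma, beside 0.195% of all tested probes, 0.189% with the larger and 0.0064% with the smaller value in S211A+MDFIC. At an unadjusted p under 0.05 there were 2 of the 16, IRS2 and PIK3R1, both with the smaller response in S211A+MDFIC, beside 9.31% of all tested probes. For PIK3R1 the difference was -0.29 (interval -0.48 to -0.10, limma adjusted p = 0.36) and with slide as a block -0.25. For IRS2 it was -0.29 (interval -0.56 to -0.01, limma adjusted p = 0.52) and with the block -0.10. The other probe of PIK3R1 gave 0.13 and the other probes of IRS2 gave 0.24 and 0.05. The difference was 0.04 (interval -0.12 to 0.21) for PDK4, -0.09 (interval -0.28 to 0.10) for TXNIP and 0.02 (interval -0.14 to 0.19) for DDIT4. The FOXO3 and FOXO1 calls seen in 1 transfection only were not shown to differ, with differences of 0.10 (interval -0.15 to 0.36) for FOXO3 and 0.11 (interval -0.12 to 0.34) for the dimmer FOXO1 probe. The FOXO3 value depended on the processing, as it was 0.37 with slide as a block (SE 0.12, limma adjusted p = 0.56). For the dimmer FOXO1 probe the block gave 0.17 (SE 0.16, limma adjusted p = 0.81), and neither was called.

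**Figure D4:**
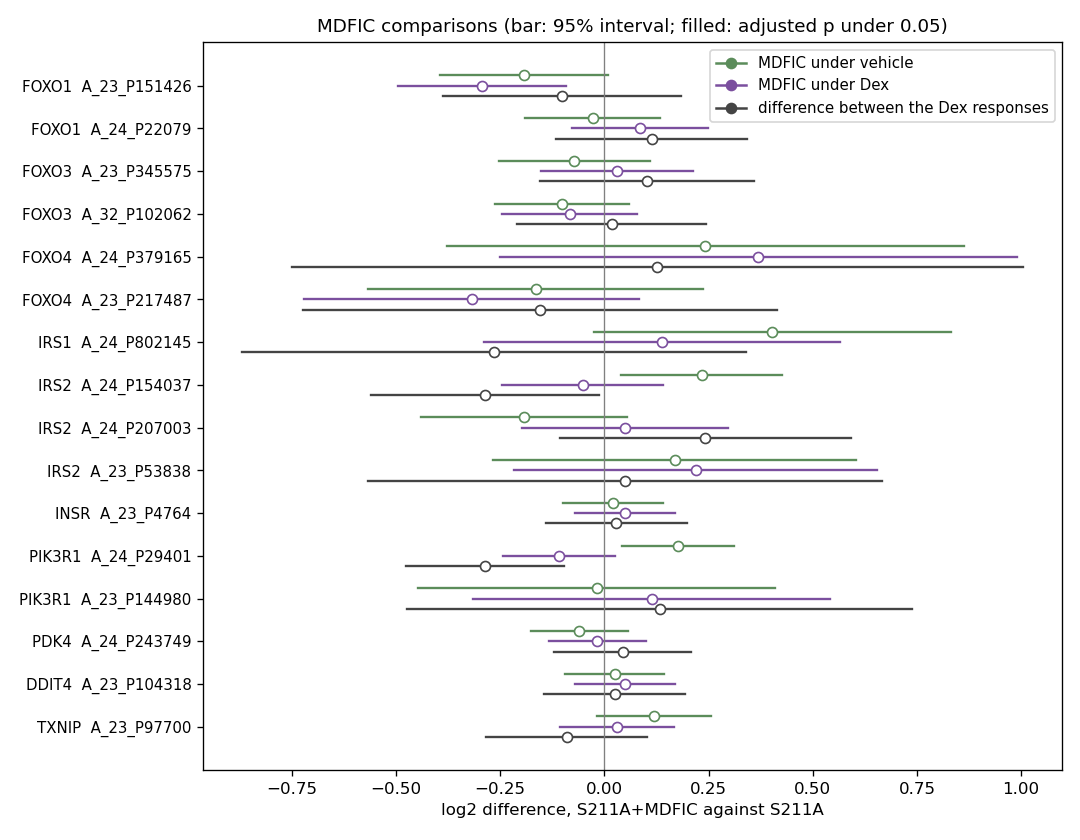
MDFIC comparisons of the 16 tested probes (log2, S211A+MDFIC against S211A, horizontal axis) under vehicle, under Dex, and as the difference between the Dex responses, with 95% intervals. All points are open, since none passed an adjusted p of 0.05, and the intervals are narrowest for PDK4, DDIT4 and INSR.

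The accessions whose signals ran most like those of the 3 genes called in both Dex comparisons were found by Pearson's r over the 12 arrays. For PDK4 these were NM_001039966 (r = 0.999) and NM_005952 (r = 0.997), and 334 accessions reached 0.95. For TXNIP they were NM_024808 (r = 0.983) and NM_003670 (r = 0.978), and 32 reached it. For PIK3R1 the 2 highest were 0.963 and 0.961, and 5 reached it. The 12 arrays fall into vehicle and Dex groups, so these r describe the 12 arrays and carry no test. The files do not pair accessions with gene names.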

How the data were processed

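Cy3-labelled RNA of 12 samples was hybridised to 12 arrays. The deposited files hold intensity values on a linear scale, made with Agilent Feature Extraction 12 per the submitters' processing notes, with background subtracted and signals detrended within each array per the file headers. A table of the whole series, also deposited, repeats these intensity values without scaling between arrays.

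Processed signals were taken to log2 and each array's 75th percentile over non-control probes was subtracted. The 945 outlier spots were set to missing, none of them at a member probe, and spots of 1 probe were averaged. A probe was tested where some group had all 3 arrays well above background and every group had at least 2 values (31232 probes). Group means over 12 arrays were contrasted with limma 3.58.1 in R 4.3.3 (two-sided, Benjamini-Hochberg within each comparison, called at an adjusted p under 0.05). The fit was by probe, since all probes of a gene count, and was tested on simulated data. The simulated arrays varied independently and held no slide effect, so that test does not cover differences between slides. Figures were drawn with matplotlib 3.10.9.

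The genes, lists and tests were chosen with earlier results of these data known. The named genes are the 10 members with all their probes, and the accessions most like those called for Dex in both transfections. The lists of other pathway genes and of cell type markers, the transfected genes and the promoter motifs are set out by symbol and were not analysed here. No sequences were used here. Gene names of the members were taken from the list of accessions that defines them. Same-numbered replicates deviated together with r of -0.25 to 0.24 over 12 pairs, so the numbers were not taken to pair the samples.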

Additional observations from a re-analysis of the deposited data

How the results depend on the processing

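The 16 probes were refitted under 12 other settings and with each of the 12 arrays left out. No called change turned its direction in any of these fits. For Dex in S211A 4 probes were called. There were 5 with trend and robust moderation (DDIT4 added) or with only the compared groups in the fit (FOXO4 added), 3 with slide as a block (IRS2 lost), 2 on unscaled values and 0 within slide 1, where 46 of all tested probes were called and the lone Dex array is assumed to vary like the vehicle arrays. Leaving out an array gave 4 to 5. For Dex in S211A+MDFIC 5 were called. There were 6 with trend and robust moderation or the filter over 12 arrays (IRS2 added in both), 4 with 1 probe per accession, 3 with normexp, 3 with no filter on dim probes, 3 with slide as a block, 2 with median centring, 2 on unscaled values, 2 with only the compared groups in the fit and 0 within slide 3, where 5 of all tested probes were called. Leaving out an array gave 2 to 7, with 7 without S211A+MDFIC Dex replicate 2, 3 when the array dropped was S211A vehicle replicate 1, S211A Dex replicate 3 or S211A+MDFIC vehicle replicate 2, and 2 when it was replicate 1 or 3 of S211A+MDFIC vehicle or of S211A+MDFIC Dex. For MDFIC under vehicle 0 were called, and 1 with no filter, the PDK4 probe that was not well above background on any array (log2 -0.60). Leaving out an array gave 0 throughout. For MDFIC under Dex leaving out an array gave 0 to 1, and for the direct comparison of both Dex responses 0 throughout. The replicate block, by the number in the labels, gave 4 and 5 called probes for Dex in S211A and S211A+MDFIC, with FOXO3 lost and IRS2 gained in the second. Same-numbered arrays did not deviate together, so this block is no pairing. The cause of these changes was not tested. The fits within 1 slide also hold fewer arrays.

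Over all tested probes the split of higher and lower calls moved with the scaling. For Dex in S211A it was 1303 and 616, with median centring 800 and 834, and unscaled 521 and 98. For Dex in S211A+MDFIC it was 1719 and 1219, then 1084 and 964, and 523 and 128. For MDFIC under vehicle it was 112 and 118, then 90 and 99, and 62 and 16, and under Dex 58 and 39, then 60 and 25, and 26 and 1. On unscaled values the median of all probes was 0.12 in both MDFIC comparisons, beside -0.01 under vehicle and 0.00 under Dex as reported.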
